A study of Homo sapiens with 6 samples.

Results

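Condensin and cohesin are the ring-shaped protein complexes that fold chromosomes and hold sister chromatids together, and 10 of their subunits were followed in the established human pancreatic cancer line MIA PaCa-2 with and without recombinant human cytoglobin (rhCYGB). The members were chosen by gene symbol, 6 for condensin (SMC2, SMC4, NCAPD2, NCAPG, NCAPH and NCAPD3) and 4 for cohesin (SMC1A, SMC3, RAD21 and STAG2), out of 35993 genes listed. All 10 passed the filter on low counts and were among the 14728 genes tested. RNA-seq was performed on 3 untreated libraries and 3 libraries from cells that received 4 µM rhCYGB for 48 h, a His-tagged protein that the authors made in bacteria. The protocol in the labels, the same for all 6 samples, has the cells plated in 24-well plates and the medium switched to DMEM with 1% FBS on the day before the protein was added. The labels name no vehicle for the untreated cells and do not say whether the libraries of a group came from separate cultures, so the p-values measure the spread between these libraries, which may be technical.

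Each complex is built on a pair of long SMC proteins that join at a hinge and bind ATP at their heads, a kleisin subunit that closes the ring, and HEAT-repeat subunits that attach to the kleisin. Condensin shapes the compact chromosomes of mitosis. Its 2 forms share SMC2 and SMC4 and differ in the other subunits. Cohesin entraps sister chromatids from S phase until separase cuts the kleisin at anaphase, and in interphase it also extrudes chromatin loops together with CTCF. Cohesin subunits are therefore used throughout the cell cycle, whereas condensin is known mainly for its work in cell division.

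The promoters of the members are shown first, searched for a short element of cell cycle genes. TTTGAA, the cell cycle genes homology region of many late cell cycle genes, was searched on both strands (TTCAAA is its reverse) in windows from 250 bases before to 50 bases after each RefSeq gene start in GRCh38.p14. It was found for 5 of the 6 condensin genes, all but NCAPH, and for 1 of the 3 cohesin genes with an entry, SMC3, against 15.2% of 35116 promoter windows of all genes. RAD21 had no entry, so 9 of the 10 members matched, and genes with several starts have more windows in which to hold the element. Stretches of 30 bases around it, each read 5′ to 3′ on the strand of the gene with the element in capitals, allow the matches to be compared:
SMC4 (chr3:160399563-160399592, plus strand): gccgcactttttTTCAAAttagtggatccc
NCAPG (chr4:17810932-17810961, plus strand): tcgcgggaattaTTTGAAcgttcgagcggt
SMC2 (chr9:104094294-104094323, plus strand): ctcgcgccgaaaTTCAAAggaataaatagt
NCAPD3 (chr11:134223953-134223982, minus strand): gcgggagcgagcTTTGAAagttgagcacgg
NCAPD2 (chr12:6493945-6493974, plus strand): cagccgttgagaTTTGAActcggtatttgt
SMC3 (chr10:110567532-110567561, plus strand): cagaattctagaTTCAAAagaaatccacca

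The element began 3 bases before the start in SMC2 and NCAPD3, 35 bases before it in NCAPG and 75 bases before it in SMC4. In NCAPD2 and SMC3 it lay farther out, at 145 and 151 bases. NCAPD2 also held 4 copies of the CCAAT box in reverse (ATTGG), an element bound by NF-Y, at 199, 170, 70 and 30 bases before the start. The CCAAT box was found for 3 of 6 condensin genes (NCAPD2, NCAPD3 and NCAPH) and 1 of 3 cohesin genes (STAG2), against 34.6% of all windows. The 250 bases before the starts of NCAPD2, with both elements, and of NCAPH, which lacks TTTGAA, are given with TTTGAA and the CCAAT box in either orientation in capitals:
NCAPD2 (chr12:6493852-6494101, plus strand): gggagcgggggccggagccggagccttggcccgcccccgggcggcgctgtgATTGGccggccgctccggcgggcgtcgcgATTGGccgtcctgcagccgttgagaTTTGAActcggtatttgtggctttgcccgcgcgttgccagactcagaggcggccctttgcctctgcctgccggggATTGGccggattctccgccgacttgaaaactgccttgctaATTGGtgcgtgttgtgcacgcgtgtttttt
NCAPH (chr2:96335516-96335765, plus strand): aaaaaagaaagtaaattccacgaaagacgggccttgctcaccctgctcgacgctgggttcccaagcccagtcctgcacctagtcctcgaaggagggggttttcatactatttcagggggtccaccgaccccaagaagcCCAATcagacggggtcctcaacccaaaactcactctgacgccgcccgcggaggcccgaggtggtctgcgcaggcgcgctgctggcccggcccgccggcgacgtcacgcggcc

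Of the other motifs searched on both strands, the E2F-type TTTCCCGC was found in NCAPD3 and SMC1A (1.63% of all windows) and TTTGGCGC in STAG2 (0.652%). TTTCGCGC (0.515%) and the homology region variant TTCGAA (1.45%) were in 0 members. The GC box GGGCGG was in 4 of 6 condensin and 3 of 3 cohesin genes, against 45.0% of all windows. No 2 motif matches overlapped in the members, and a match describes letters in a window, not a bound site. Of the genes with TTTGAA, the 5 of condensin were lower after rhCYGB and SMC3 was higher. Of those without it, NCAPH and SMC1A were lower and STAG2 was higher. A link between motifs and levels was not tested.

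Total read counts ranged from 34838399 to 42271299 per library, and libraries of a group differed by a coefficient of variation of 5.48%, so small fold changes passed the test. Levels are given as read counts and as CPM, the counts relative to the TMM-scaled library size, and a count of 3, taken as the floor, corresponded to between 0.0669 and 0.0902 CPM. Adjusted p-values of genes come from the quasi-likelihood test of edgeR, corrected by the Benjamini-Hochberg method over all 14728 genes, with a threshold of 0.05. The labelled cell line was checked by markers. KRT8 (mean 2085 CPM untreated, 1190.2 CPM after rhCYGB), KRT18 (1648 and 1694 CPM), KRT19 (260.4 and 171 CPM) and VIM (8013 and 11744 CPM) were abundant, of which KRT8 and KRT19 were called lower and VIM higher. KRT7 was at most 1.03 CPM, EPCAM had 0 counts and CDH1 at most 2. Of the fibroblast markers, DCN and LUM were at 0 and COL1A1 and PDGFRB had at most 10 counts. The immune and endothelial markers PTPRC, CD3E and PECAM1 were also at 0, but CD68 (mean 36.0 CPM untreated, 71.4 CPM after rhCYGB) and CDH5 (117 and 12.2 CPM) had counts and differed between the groups, and the part of these markers in the results was not tested.

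All 6 listed condensin subunits were lower after rhCYGB, by 1.91-fold (SMC4) to 3.01-fold (NCAPD2), and 5 of them by 2-fold or more. NCAPG2 and NCAPH2 of condensin II are not among the 6 and are given below. The 4 cohesin subunits did not move together: SMC1A and RAD21 were lower, and SMC3 and STAG2 were higher. These calls stand against a background in which 38.6% of all genes tested were lower and 39.0% higher at the same threshold, and in which 14.7% were lower and 12.4% higher by at least 2-fold. The median log2 fold change was -1.35 over the 6 condensin subunits, 0.08 over the 4 cohesin subunits and -0.0046 over all genes tested, with values from -1.59 to -0.93 in condensin and from -1.05 to 0.55 in cohesin. In bulk RNA, fewer cells in the phases of the cycle that express these genes and less of their mRNA in each cell cannot be told apart.

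**Figure D1:**
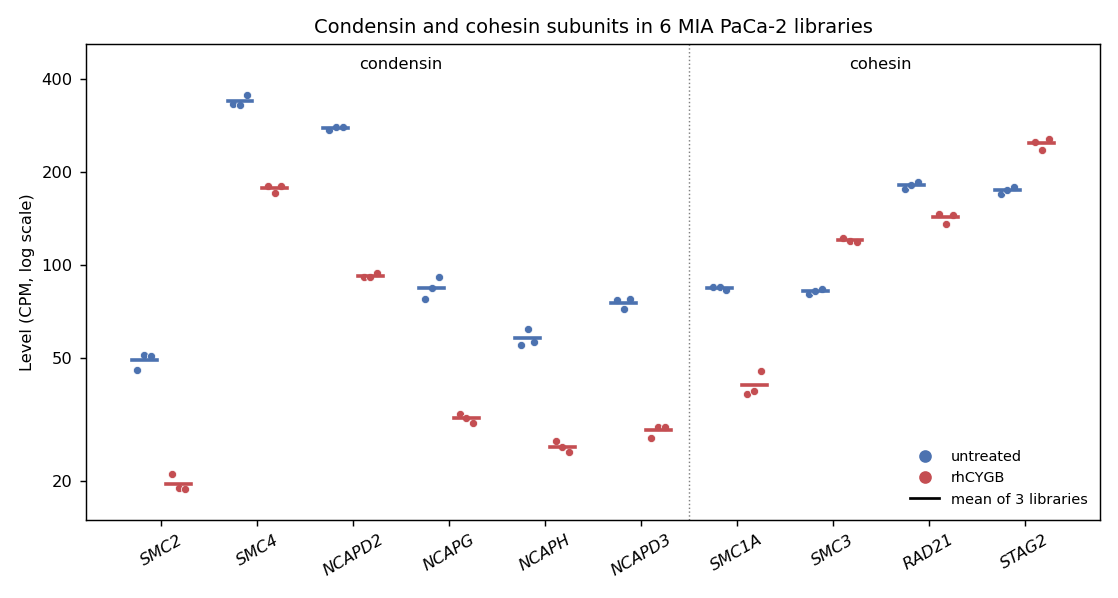
Level of each subunit in CPM (log axis) in the 3 untreated (blue) and 3 rhCYGB (red) libraries, with 1 point per library and a bar at the mean of a group. The red points lie below the blue ones for the 6 condensin subunits and for SMC1A and RAD21, and above them for SMC3 and STAG2. The groups do not overlap for any of the 10 genes, as for 79.5% of all genes tested.

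SMC2 and SMC4 are the ATPase core of both condensins. SMC2 (gene ID 10592, chromosome 9, 106856541 to 106903700 in the deposited table) had 1708, 2300 and 2069 counts in the untreated libraries and 780, 632 and 693 counts after rhCYGB. The mean level was 49.3 ± 3.01 CPM in untreated and 19.6 ± 1.22 CPM in rhCYGB cells (SD, n = 3 each), a log2 fold change of -1.33 (SE 0.0635, edgeR adjusted p = 3.29e-11). Every rhCYGB library was below every untreated one. Its partner SMC4 (gene ID 10051, chromosome 3, 160117438 to 160152741) had 12413, 14756 and 14473 counts untreated and 6697, 5712 and 6645 counts after rhCYGB. Its mean level was 339 ± 13.8 CPM without and 177 ± 4.95 CPM with rhCYGB, and the log2 fold change was -0.93 (SE 0.0401, edgeR adjusted p = 9.61e-12). SMC4 was thus, among the listed condensin subunits, the one with the smallest change and the one that stayed under 2-fold. This depends on the scaling. SMC4 passed 2-fold with upper-quartile factors (-1.08), total counts (-1.10) and both limma fits on FPKM (-1.07 and -1.10).

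NCAPD2, NCAPG and NCAPH are the non-SMC subunits of condensin I, the form that meets chromosomes once the nuclear envelope has broken down. NCAPD2 (gene ID 9918, chromosome 12, 6603268 to 6641121), a HEAT-repeat subunit, had 10224, 12509 and 11429 counts untreated and 3402, 3044 and 3466 counts after rhCYGB. Its level fell from 278 ± 3.08 to 92.4 ± 1.43 CPM, with a log2 fold change of -1.59 (SE 0.0362, edgeR adjusted p = 1.00e-14), so that 6.19% of all genes tested had a lower log2 fold change. NCAPG (gene ID 64151, chromosome 4, 17812602 to 17846488), the other HEAT-repeat subunit, had 2885, 3766 and 3743 counts untreated and 1224, 1060 and 1135 counts after rhCYGB. The untreated libraries of NCAPG spread the most of the condensin genes in relation to their mean, from 77.4 to 91.8 CPM, and the rhCYGB libraries lay between 30.8 and 32.9 CPM. The log2 fold change was -1.41 (SE 0.0607, edgeR adjusted p = 1.04e-11). NCAPH (gene ID 23397, chromosome 2, 97001504 to 97042829), the kleisin, had 2058, 2790 and 2303 counts untreated and 998, 858 and 917 counts after rhCYGB. Its mean level was 58.0 ± 3.75 CPM untreated and 25.8 ± 0.996 CPM after rhCYGB, a log2 fold change of -1.17 (SE 0.0582, edgeR adjusted p = 5.57e-11).

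NCAPD3 (gene ID 23310, chromosome 11, 134020008 to 134095355) is the HEAT-repeat subunit of condensin II, the form that is in the nucleus throughout interphase. It had 2866, 3232 and 3173 counts untreated and 1027, 995 and 1101 counts after rhCYGB, or 75.6 ± 3.06 and 29.1 ± 1.29 CPM. The log2 fold change was -1.38 (SE 0.0521, edgeR adjusted p = 2.27e-12). The log2 fold change of this condensin II subunit thus lay inside the range of the 3 condensin I subunits, from -1.59 to -1.17. Those of the other condensin II subunits, NCAPG2 (-0.87) and NCAPH2 (0.04), lay outside it.

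In cohesin, the core pair SMC1A and SMC3 went in opposite directions. SMC1A (gene ID 8243, chromosome X, 53401070 to 53449677) had 3173, 3806 and 3399 counts untreated and 1423, 1302 and 1669 counts after rhCYGB. The mean level was 84.5 ± 0.990 CPM untreated and 40.9 ± 3.81 CPM after rhCYGB. The log2 fold change was -1.05 (SE 0.0574, edgeR adjusted p = 1.77e-10), and the third rhCYGB library was the highest of its group with 45.3 CPM. SMC1A was the only cohesin subunit of the 4 past 2-fold, and without the first rhCYGB library its log2 fold change was -0.99. SMC3 (gene ID 9126, chromosome 10, 112327449 to 112364392) had 3008, 3688 and 3418 counts untreated and 4543, 3974 and 4393 counts after rhCYGB. Its level was 82.3 ± 1.54 CPM untreated and 120.3 ± 1.73 CPM after rhCYGB, higher by 0.55 on the log2 scale (SE 0.0383, edgeR adjusted p = 3.20e-09). Each rhCYGB library was above each untreated one, although 74.5% of all genes tested had a lower log2 fold change than SMC3.

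RAD21 is the kleisin that separase cuts, and STAG2 is the HEAT-repeat subunit bound to it. RAD21 (gene ID 5885, chromosome 8, 117858173 to 117887015) had 6547, 8144 and 7573 counts untreated and 5452, 4528 and 5344 counts after rhCYGB. With means of 181 ± 5.01 and 143 ± 5.71 CPM its log2 fold change was -0.34 (SE 0.0406, edgeR adjusted p = 1.46e-06), the smallest in size of the 10. STAG2 (gene ID 10735, chromosome X, 123094410 to 123236506) had 6308, 7871 and 7321 counts untreated and 9324, 7877 and 9465 counts after rhCYGB. Its means of 175 ± 5.15 and 248 ± 10.3 CPM gave a log2 fold change of 0.51 (SE 0.0406, edgeR adjusted p = 1.69e-08). For all 10 members the range of the untreated libraries did not overlap that of the rhCYGB libraries, as was the case for 79.5% of all genes tested.

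Taking each library by itself, the mean log2 CPM of the 6 condensin genes lay close to that of the 4 cohesin genes in untreated cells, with condensin minus cohesin at -0.18, -0.15 and -0.13. After rhCYGB the same difference was -1.34, -1.33 and -1.43. The mean difference went from -0.16 ± 0.024 to -1.37 ± 0.057 (SD, n = 3 each), a change of -1.21 on the log2 scale. The condensin mean fell by 1.30, from 6.77 to 5.48 log2 CPM, while the cohesin mean went from 6.93 to 6.84. The cohesin mean hides its opposite movements, since SMC1A and RAD21 were lower and SMC3 and STAG2 higher. These averages are descriptions of the listed genes and carry no test.

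Ratios of read counts within a library do not depend on how the libraries were scaled, and 7 pairs of subunits were compared in this way. Such ratios do depend on transcript length, so a ratio near 1 does not stand for equal levels of 2 genes. SMC1A and SMC3, which pair in one ring, had nearly equal counts in untreated cells, with ratios of 1.05, 1.03 and 0.994. After rhCYGB the ratios were 0.313, 0.328 and 0.380, a change of -1.60 on the log2 scale. The condensin pair SMC2 and SMC4 moved less apart, from 0.138, 0.156 and 0.143 to 0.116, 0.111 and 0.104, a change of -0.40. STAG2 to RAD21 had the tightest untreated replicates, with 0.963, 0.966 and 0.967 in untreated cells and 1.71, 1.74 and 1.77 after rhCYGB, a change of 0.85. Between the complexes, SMC2 to SMC3 went from 0.568, 0.624 and 0.605 to 0.172, 0.159 and 0.158, a change of -1.88.

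The other tested ratios inside condensin, NCAPD2 to NCAPD3 and NCAPG to NCAPH, changed little in comparison. NCAPG2 and NCAPH2 of condensin II were not among the 7 pairs. NCAPD2 to NCAPD3, a condensin I to a condensin II subunit, went from 3.57, 3.87 and 3.60 to 3.31, 3.06 and 3.15, a change of -0.21. NCAPG to NCAPH changed by -0.24, and by -0.16 without untreated replicate 3. In these 6 ratios the groups did not overlap, and the two-sided exact permutation test gave p = 0.1 for each, the smallest p that 3 against 3 libraries allow, so that no ratio could pass 0.05 (Benjamini-Hochberg adjusted p over the 7 ratios = 0.117). The share of other gene pairs whose ratios do not overlap was not computed. Of all genes tested, 79.5% had CPM ranges without overlap, so the separation is not particular to these subunits. The seventh, SMC4 to SMC1A, overlapped between the groups, with 3.91, 3.88 and 4.26 untreated and 4.71, 4.39 and 3.98 after rhCYGB (exact permutation p = 0.2). The change of this ratio, between a condensin and a cohesin gene, was 0.12 on the log2 scale, within the spread of the libraries, and 0.059 without rhCYGB replicate 1 or 0.18 without rhCYGB replicate 3. With the deposited FPKM in place of counts the changes were nearly the same, at -1.60 for SMC1A to SMC3 and 0.85 for STAG2 to RAD21.

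**Figure D2:**
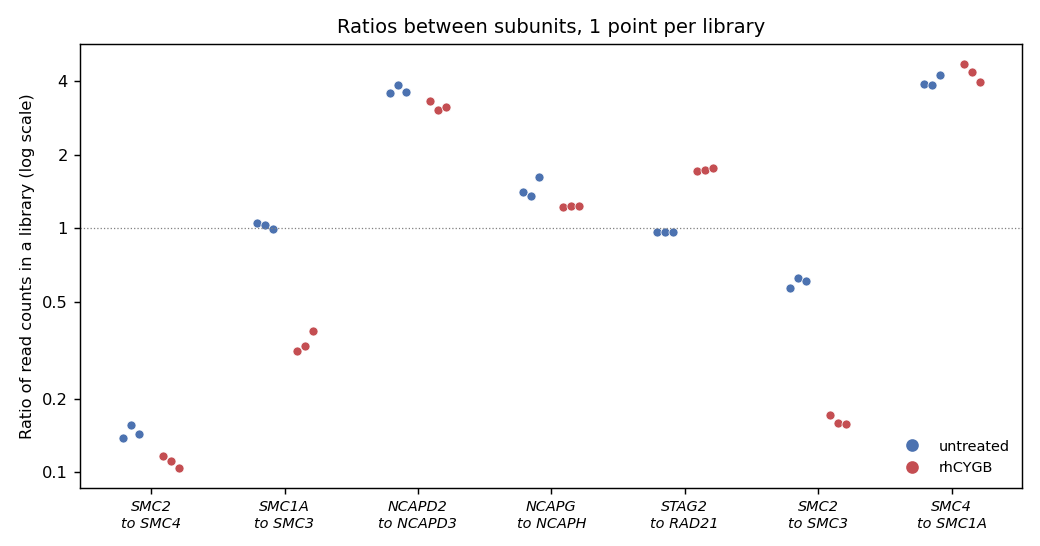
Ratios of read counts between pairs of subunits (log axis), with 1 point per library, for untreated (blue) and rhCYGB (red) cells; the dotted line marks equal counts. SMC1A to SMC3 drops from about 1 to between 0.313 and 0.380, STAG2 to RAD21 rises from below 1 to above 1.7, and SMC4 to SMC1A overlaps between the groups.

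Levels of different genes were compared per transcript length, as the FPKM that the authors deposited. In untreated cells SMC4 was highest at 61.8 ± 3.02 FPKM, followed by NCAPD2 (53.7 ± 0.971), RAD21 (46.1 ± 1.62) and STAG2 (26.8 ± 0.915). SMC3 (18.7 ± 0.492) and NCAPG (17.2 ± 1.60) overlapped in their libraries, as did NCAPD3 (9.57 ± 0.435) and NCAPH (8.98 ± 0.573). SMC1A (8.10 ± 0.027) and SMC2 (7.73 ± 0.504) were lowest. The abundant and the scarce subunits were thus found in both complexes. Within each SMC pair the levels were unequal on this scale, with SMC2 far below SMC4 and SMC1A below SMC3.

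After rhCYGB, cohesin subunits took the first places. STAG2 (34.1 ± 2.03 FPKM) and RAD21 (32.4 ± 1.95) overlapped at the top, SMC4 (28.8 ± 1.42) came next, and SMC3 (24.3 ± 0.675) stood above NCAPD2 (15.9 ± 0.562). NCAPG was at 5.78 ± 0.198. NCAPH (3.57 ± 0.144), SMC1A (3.49 ± 0.372) and NCAPD3 (3.28 ± 0.147) overlapped one with the next, and SMC2 (2.74 ± 0.187) was again the lowest. Among all genes tested, SMC2 exceeded 58.4% of the genes in untreated FPKM and 37.8% after rhCYGB, whereas STAG2 exceeded 84.2% and 88.1%.

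**Figure D3:**
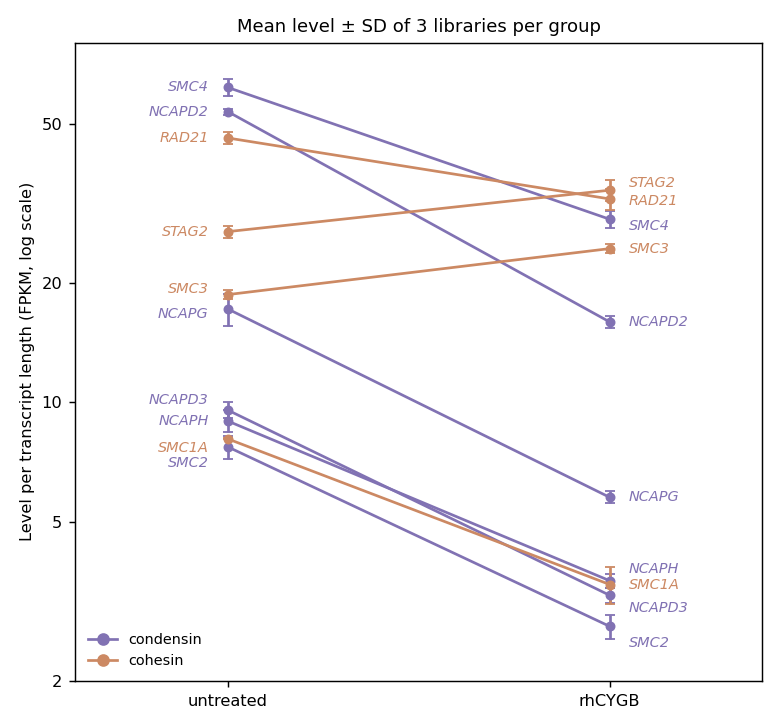
Mean FPKM of each subunit (log axis) in untreated and rhCYGB cells, with error bars of 1 SD over 3 libraries, condensin in purple and cohesin in orange. The condensin lines all descend, SMC3 and STAG2 ascend, and STAG2 moves from below SMC4, NCAPD2 and RAD21 at 26.8 FPKM to the highest place at 34.1 FPKM.

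Transcripts were also counted. The deposited table lists 28 transcripts of the members, of which 24 passed the filter, and edgeR's quasi-likelihood test called 10 lower and 1 higher, where 14.8% of all 32577 transcripts tested were lower and 15.1% higher. The calls were 8 lower of 16 tested in condensin, and 2 lower and 1 higher of 8 tested in cohesin. Not all were stable. NCAPD3 variant 4 and SMC4 variant 3, both under 10% of their gene's mean counts, lost their calls with a replicate block (edgeR adjusted p = 0.117 and 0.0965). SMC3, RAD21 and NCAPD2 have 1 listed transcript each, so these genes account for 3 of the calls. In the other genes the assignment of reads to transcripts varied between libraries of one group.

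For SMC4, NCAPD3 and NCAPG, 1 transcript held most counts in every library and fell with the gene. SMC4 variant 2 held 85.7 to 90.4% of the gene in untreated and 91.6 to 94.9% in rhCYGB libraries (log2 fold change -0.94, SE 0.0361, edgeR adjusted p = 4.08e-05). NCAPD3 variant 1 held 81.9 to 93.1% and 91.1 to 96.2% (log2 fold change -1.37, edgeR adjusted p = 0.000204). NCAPG variant 1 held at least 87.6% in each library and fell by 1.53 on the log2 scale (edgeR adjusted p = 0.000269). In these genes the change of the gene and that of its main transcript were thus largely the same measurement.

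SMC2, NCAPH, SMC1A and STAG2 were divided among several transcripts. SMC2 variant 3 held 40.0 to 54.4% of the gene in untreated libraries but 84.1, 99.5 and 35.6% in the rhCYGB libraries, and variant 2 had 0, 0 and 214 counts there after 855, 1040 and 451 untreated. SMC2 variant 1 held 2.40, 14.3 and 23.4% of the gene in untreated and 6.03, 0 and 33.5% in rhCYGB libraries. None of the 3 tested SMC2 transcripts was called, with edgeR adjusted p between 0.241 and 0.594, although the gene was. Without rhCYGB replicate 3, the remaining rhCYGB libraries had 0 counts of SMC2 variant 2, which was then called lower (edgeR adjusted p = 0.00475). NCAPH variant 1 fell by 1.45 on the log2 scale (SE 0.286, edgeR adjusted p = 0.0143). Its call was lost without untreated replicate 2, untreated replicate 3 or rhCYGB replicate 3 (edgeR adjusted p = 0.0502, 0.051 and 0.0567). NCAPH variant 2 had a log2 fold change of -0.99 (SE 0.445, edgeR adjusted p = 0.166). SMC1A variant 1 fell by 1.35 (SE 0.0882, edgeR adjusted p = 0.000229), where the gene was at -1.05. Gene and transcript counts were scaled separately, which shifts such comparisons. SMC3, whose only transcript has the counts of the gene, was at 0.55 as a gene and 0.47 as a transcript. Variant 2 of SMC1A took 1.07, 9.41 and 0.324% of the gene in untreated libraries and 11.0, 5.61 and 32.6% after rhCYGB, with 544 of its counts in the third rhCYGB library, where SMC1A was highest, and its own test was not passed (edgeR adjusted p = 0.614). STAG2 variant 4, the main one, had 4703, 4099 and 2966 counts untreated and 7888, 6478 and 4950 after rhCYGB (log2 fold change 0.82, SE 0.261, edgeR adjusted p = 0.0683). Variants 2 and 3 of STAG2 held up to 22.3 and 28.9% of the gene in a library, with edgeR adjusted p of 0.812 and 0.553.

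**Figure D4:**
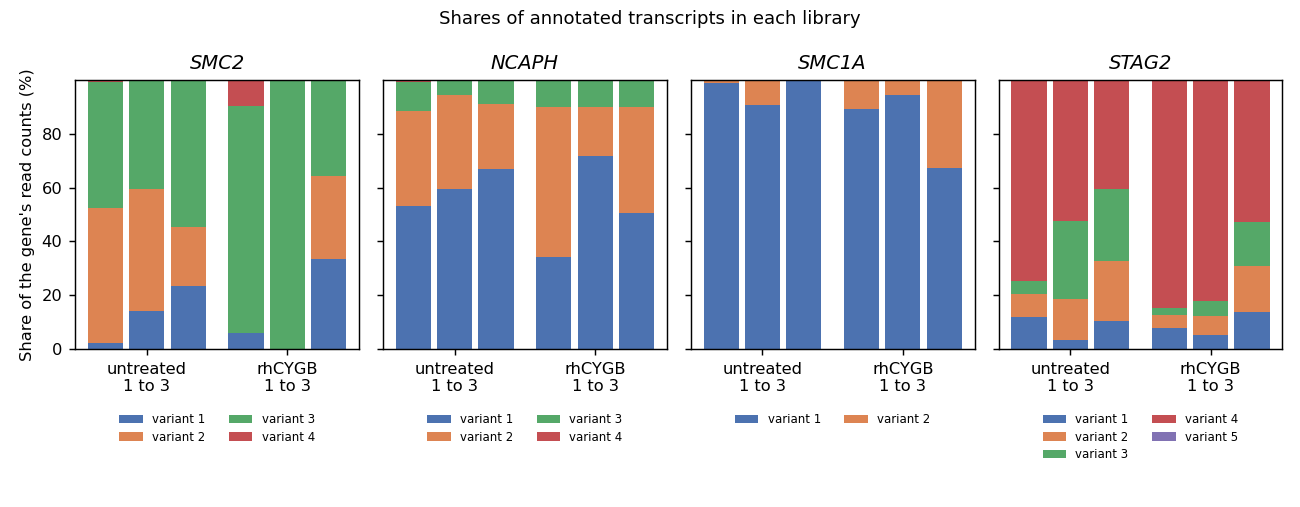
Share of each gene's read counts given to each listed transcript (stacked bars, in percent) in untreated libraries 1 to 3 and rhCYGB libraries 1 to 3. The shares differ between libraries of one group, for example for SMC2 variant 3, which takes 35.6 to 99.5% in rhCYGB libraries.

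The positions of 7 of the 10 members overlap another listed gene, and the way strand was used in the counting is not given in the sources used here. NCAPG overlaps LCORL, which had 218, 304 and 386 counts untreated and 728, 643 and 800 after rhCYGB, the opposite direction to NCAPG. NCAPD3 overlaps VPS26B (1772 to 2006 counts untreated, 1234 to 1368 after rhCYGB) and JAM3 (961 to 1130 and 793 to 896). SMC4 overlaps TRIM59-IFT80, which had at most 75 counts. The other overlapping genes had at most 19 counts in a library.

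The remaining genes of the pathway were taken from lists of 35 genes, written with earlier results of these data known. Of these genes 32 were tested, with 18 lower, 9 higher and 5 not called at an adjusted p of 0.05. That is 9 of 32 higher where 39.0% of all genes tested were higher, and 18 of 32 lower where 38.6% were. By 2-fold or more, 11 were lower and 1 was higher, against 14.7% and 12.4% of all genes. The median of the 32 was -0.61 on the log2 scale. Library scaling matters for the small changes here: with upper-quartile factors or total counts the median of all genes moved from -0.0046 to -0.15 or -0.17, and WAPL and SMC6, which are called higher here, changed sign under total counts and in both limma fits on FPKM, WAPL also under upper-quartile factors. WAPL lost its call in 10 and SMC6 in 6 of 16 alternatives. PDS5A was no longer called under either scaling or in the limma fits, and PDS5B was no longer called without any 1 of 4 libraries (untreated 2 or 3, or rhCYGB 1 or 2).

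Of the other genes tied to condensin II, NCAPG2, its second HEAT-repeat subunit, was lower (log2 fold change -0.87, SE 0.0432, edgeR adjusted p = 5.29e-11). NCAPH2, its kleisin, was at 41.1 ± 1.54 CPM untreated and 42.2 ± 3.72 CPM after rhCYGB (95% interval of the log2 fold change -0.10 to 0.17, edgeR adjusted p = 0.589), and the interval does not reach the change of the condensin I kleisin NCAPH. NCAPH2 overlaps SCO2, which had 653 to 728 counts untreated and 1100 to 1155 after rhCYGB, so the split of reads between them is uncertain. MCPH1, an inhibitor of condensin II, was higher, from 14.9 ± 0.516 to 18.6 ± 0.921 CPM (log2 fold change 0.33, edgeR adjusted p = 0.00065). The log2 fold change of NCAPH2 lay between -0.13 and 0.11 over 16 alternatives and changed sign in 5 of them. FPKM ratios inside condensin II, chosen after the values were seen, fell. NCAPD3 to NCAPH2 was 0.821, 0.738 and 0.858 in untreated libraries and 0.248, 0.322 and 0.269 after rhCYGB. NCAPD3 to NCAPG2 went from 0.452, 0.396 and 0.439 to 0.282, 0.305 and 0.308. The 3 listed factors that work beside condensin on the mitotic chromosome were lower by over 2-fold. Of all genes tested, 14.7% were lower by 2-fold or more. The 3 were TOP2A, the type II topoisomerase (log2 fold change -1.51, 531 to 187 CPM), KIF4A, the chromokinesin (-1.46), and MKI67, the coat protein of the chromosome surface (277 to 69.3 CPM).

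Other somatic cohesin genes changed by less than the listed subunits SMC1A, SMC3 and STAG2. STAG1, the alternative to STAG2 in the ring, was lower (70.4 ± 2.22 to 59.4 ± 1.16 CPM, log2 fold change -0.24, edgeR adjusted p = 0.000126). The FPKM ratio of STAG2 to STAG1, chosen after their values were seen, was 2.50, 2.46 and 2.48 in untreated libraries and 4.32, 4.02 and 4.21 after rhCYGB. Among the loading and release factors, NIPBL, the loader, was higher by 0.37 on the log2 scale (edgeR adjusted p = 4.41e-06) and CTCF, which stops cohesin at loop anchors, by 0.53 (edgeR adjusted p = 4.31e-08). MAU2, the partner of NIPBL, was at 43.6 ± 2.24 and 47.5 ± 3.25 CPM and was not called (edgeR adjusted p = 0.0685). The releasing factor WAPL, at 0.11, was called higher, but its call was lost in 10 and its sign turned in 4 of 16 alternatives. With WAPL, 3 of these 4 genes were higher and 0 lower, where 39.0% of all genes tested were higher.

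The genes that establish and protect cohesion had 8 of 10 lower, 6 of them by 2-fold or more, and 1 higher, where 38.6% of all genes tested were lower, 14.7% by 2-fold or more, and 39.0% higher. The 2 acetyltransferases that lock cohesin by modifying SMC3 differed. ESCO2, the S-phase enzyme, had 726, 1007 and 941 counts untreated and 140, 61 and 128 after rhCYGB (log2 fold change -2.83, SE 0.165, edgeR adjusted p = 3.74e-10). ESCO1, the enzyme active through interphase, was the gene of this list that was higher, from 34.8 ± 0.733 to 57.7 ± 2.96 CPM (log2 fold change 0.73, edgeR adjusted p = 3.42e-09). The ESCO1 to ESCO2 ratio in FPKM, also chosen after the values were seen, went from 1.51, 1.26 and 1.27 to 13.6, 25.8 and 13.5.

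HDAC8, which removes the acetyl group from SMC3, was lower (log2 fold change -0.84), as were CDCA5, or sororin, which counters WAPL (-1.26), and SGO1, or shugoshin, which guards centromeric cohesin (-0.87). DSCC1, a subunit of the clamp loader used in cohesion (-1.85), the helicase DDX11 (-1.12) and the replisome factor WDHD1 (-1.16) were lower too. CHTF18, another clamp loader subunit, was not called, with 16.5 ± 1.48 and 16.1 ± 0.518 CPM. CHTF8 had 2273, 3035 and 2949 counts untreated and 140, 240 and 417 after rhCYGB, but it shares its position with DERPC (1579 to 2041 counts untreated, 774 to 980 after rhCYGB), so the split of reads between these genes is uncertain. At the end of the cohesin cycle, separase (ESPL1), the protease that cuts RAD21, was lower (33.3 ± 0.977 to 5.28 ± 0.684 CPM, log2 fold change -2.65), and so was its inhibitor securin (PTTG1, -1.20).

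The SMC5/6 complex, the third SMC complex of human cells, also had a core pair whose members differed. SMC5 was lower (42.5 ± 1.78 to 22.6 ± 1.72 CPM, log2 fold change -0.91, edgeR adjusted p = 2.71e-09). SMC6 was at 54.2 ± 2.49 and 60.1 ± 3.23 CPM with overlapping libraries (log2 fold change 0.15, 95% interval 0.04 to 0.26, edgeR adjusted p = 0.0165) and changed sign under total counts. NSMCE2, its SUMO ligase, had 442, 467 and 402 counts untreated and 1208, 1050 and 1098 after rhCYGB, a log2 fold change of 1.55 (edgeR adjusted p = 3.60e-11), and was the 1 pathway gene higher by 2-fold. NSMCE3 was higher (0.57), NSMCE4A lower (-0.60) and NSMCE1 not called (edgeR adjusted p = 0.181). The meiotic cohesin genes SMC1B, STAG3 and RAD21L1 had 0 to 7 counts per library and were not tested, and REC8, with 18 to 81 counts, was not called (log2 fold change -0.63, edgeR adjusted p = 0.108).

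**Figure D5:**
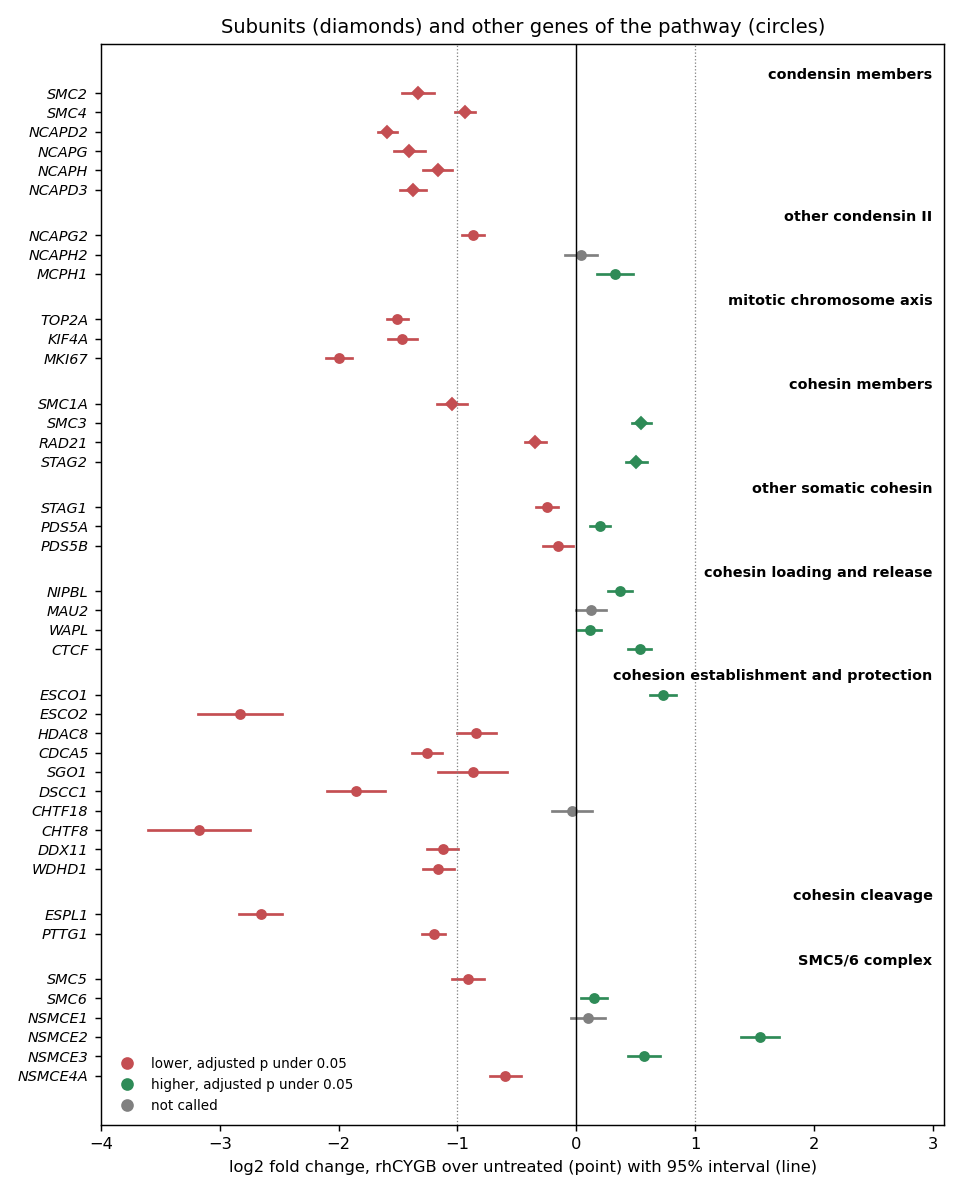
The log2 fold change of rhCYGB over untreated cells with its 95% interval from edgeR for the 10 subunits (diamonds) and for other tested genes of the pathway (circles), grouped by role, in red where lower, green where higher and grey where not called; dotted lines mark 2-fold. Condensin members lie between -1.59 and -0.93, cohesin members lie on both sides of 0, and among the establishment genes ESCO1 stands at 0.73 against ESCO2 at -2.83.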

How the data were processed

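RNA-seq of 3 untreated and 3 rhCYGB libraries was analysed. The authors prepared stranded mRNA libraries, mapped trimmed reads with HISAT2 (version 2.1.0 in the submitters' processing notes) and assembled transcripts with StringTie (2.1.3b). Read counts per gene and per transcript were deposited by the authors without normalization. The FPKM deposited by the authors are scaled to transcript length and depth, and the 12 deposited TPM columns were not used. The build is not named in the files, the notes list mm10 although the genes are human, and positions are printed as deposited. Promoters are those of RefSeq (GRCh38.p14), and their positions do not match the deposited ones. NCAPH starts at 97001504 as deposited, and its promoter window starts at 96335516. Gene and promoter positions printed here should therefore not be compared.

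Counts were tested with edgeR 4.0.16 (R 4.3.3; filterByExpr, TMM factors, glmQLFit and glmQLFTest, no block), adjusted over all genes tested. CPM used TMM-scaled library sizes and log2 CPM a prior count of 2. All members were named, and transcripts with at least 10% of a member's mean counts in either group. NCAPD3 variant 4 and SMC4 variant 3 are named outside this rule. The fit was tested on simulated data in which few genes changed, as many up as down. That simulation could not test the choice of library scaling. The floor of 3 counts covers counting error only, and the intervals of fold changes are those of the edgeR fit, which include the spread between libraries. Members, gene lists and motifs were chosen with earlier results of these data known. The alternatives were other scaling factors, filters, DESeq2 1.42.0, limma 3.58.1 on log2(FPKM + 1) and log2(FPKM + 0.1), summed transcript counts, a replicate block and leaving out each library. Samples were grouped by their labels.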

Additional observations from a re-analysis of the deposited data

How the results depend on the processing

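All 160 recomputed fold changes of the 10 members (16 alternatives for each) kept their direction and stayed past the threshold. Their sizes varied. The log2 fold change ranged from 0.37 to 0.56 for SMC3, from 0.33 to 0.54 for STAG2 and from -0.51 to -0.31 for RAD21. With total counts SMC3 was at 0.38 and STAG2 at 0.34. Of 321 recomputed values in all, 317 did not move beyond their limits and 4 did. With limma on log2(FPKM + 1), which shrinks low genes, the change in condensin minus cohesin was -1.10 rather than -1.21, and leaving out each library gave -1.23 to -1.18. The number of member transcripts called higher was 2 rather than 1 with at least 10 counts in every library, with a replicate block and without untreated replicate 1, STAG2 variant 4 being the addition each time, and the cause was not tested. Leaving out each library gave 1 to 2. The number of member transcripts called lower was 10 in the main fit, 8 with a replicate block and 8 to 10 with a library left out. The number of members at 2-fold was 7 with upper-quartile factors, total counts and both limma fits, where SMC4 joined, and 5 without rhCYGB replicate 1. Calls split 49.8% lower with TMM and 59.0% lower with total counts. Same-numbered libraries deviated from their group means with correlations of -0.05, 0.01 and 0.01 across genes, so the numbers were not taken to pair them, and the fit with the replicate block again called 6 condensin subunits lower, 2 cohesin subunits lower and 2 higher. Among the pathway genes called, 2 of 27 (WAPL and SMC6) changed sign in some alternative and 4 lost their call. With 3 libraries per group, depth did not limit the members, whose lowest count was 632.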
